A study of Mus musculus with 9 samples.

Results

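The genes described here are 9 genes of the oligodendrocyte lineage, chosen by name from a table of raw counts for 40773 gene symbols. All 9 were found and all 9 passed the low-count filter, which left 15183 genes for testing. The table covers 9 cultures of mouse embryonic cortical neurons in 3 groups of 3: a Na+ ion-charged nanostructure (Na+ ICN), a K+ ion-charged nanostructure (K+ ICN) and the non-charged peptide amphiphile (PA) that served as control. A peptide amphiphile joins a peptide to a fatty tail, and many such molecules pack into nanofibres in water. All 3 groups, PA included, received 80 µl of material from a 5 mM stock at 200 µM, had 50% of the medium replaced at 48 h, and were harvested at 72 h. No culture without any amphiphile was analysed here, so every change is relative to PA. Polyadenylated RNA was sequenced with a stranded kit. The labels give neither the strain nor the embryonic age. They do not say whether the 3 biological replicates came from separate litters, and the p-values cover no more than the spread among these 3 cultures a group.

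Oligodendrocytes wrap axons in myelin, and they arise from dividing precursor cells. The precursors carry the PDGF receptor alpha (Pdgfra), through which PDGF-A keeps them dividing, and the proteoglycan NG2 (Cspg4). The transcription factors Olig1, Olig2 and Sox10 specify the lineage. As precursors leave the cell cycle, Bcas1 marks newly forming oligodendrocytes, and genes of myelin such as Mbp (myelin basic protein) and Cnp (an enzyme of non-compact myelin) switch on. Omg (oligodendrocyte myelin glycoprotein) is a ligand of the Nogo receptor and is made by neurons as well as oligodendrocytes. Mbp also has a second set of transcripts, the golli forms, that neurons express, and the counts are per gene, so golli and classic forms cannot be told apart. Pdgfra and Cspg4 are also made by fibroblasts and by mural cells of blood vessels. Here Pdgfra, Cspg4, Olig1, Olig2 and Sox10 are called the 5 precursor genes, and Bcas1, Mbp, Cnp and Omg the 4 differentiating or myelin genes.

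Promoter sequence is given for a pair of precursor genes, Pdgfra, whose level fell with both nanostructures, and Olig2, whose level did not pass the test with either. The windows are those of RefSeq on GRCm38.p6, running from 250 bases before to 50 bases after a transcript start, and 4 of the 9 genes had one. Capitals mark the E-box, the letters CANNTG that Olig and other basic helix-loop-helix factors recognise, and the GC box, the letters GGGCGG, each searched on both strands. Pdgfra lies at chr5:75152001-75152300 and Olig2 at chr16:91225300-91225599, both on the plus strand.
Pdgfra: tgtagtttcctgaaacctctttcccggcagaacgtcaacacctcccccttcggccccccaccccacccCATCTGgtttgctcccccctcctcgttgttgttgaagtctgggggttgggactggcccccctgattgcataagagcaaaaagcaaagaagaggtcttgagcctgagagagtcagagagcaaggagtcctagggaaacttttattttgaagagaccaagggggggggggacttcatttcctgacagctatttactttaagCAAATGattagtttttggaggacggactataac
Olig2: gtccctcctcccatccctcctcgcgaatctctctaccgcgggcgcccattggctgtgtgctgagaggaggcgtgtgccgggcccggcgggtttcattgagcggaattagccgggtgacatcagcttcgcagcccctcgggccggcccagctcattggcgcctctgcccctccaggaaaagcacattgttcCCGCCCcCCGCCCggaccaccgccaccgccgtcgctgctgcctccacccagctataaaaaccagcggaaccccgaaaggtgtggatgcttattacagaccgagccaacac
The Pdgfra window held 2 E-boxes, 182 bases before and at base 18 after the start, and no GC box. The Olig2 window held no E-box and 2 GC boxes, 60 and 53 bases before the start. Of the other windows, that of Cspg4 held no E-box and 2 GC boxes, and that of Cnp held 1 E-box and 2 GC boxes. Neither Cspg4 nor Cnp passed the test with either nanostructure. Of 32851 promoter windows of this length, 72.3% held an E-box and 35.7% a GC box. The E-box CAGCTG, a subset of the first motif, was in none of the 4 windows and in 16.3% of all. The AP-1 motif TGANTCA (7.81% of all windows) and the cyclic AMP response element TGACGTCA (1.79%) were in none of the 4 either. These are matches of letters and show no binding.

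Across the 9 genes, 3 changed with each nanostructure. With Na+ ICN, Mbp rose and Pdgfra and Omg fell. With K+ ICN, Mbp and Omg rose and Pdgfra fell. Between the nanostructures, Omg alone among the 9 passed, and it was higher with K+. A gene passed at an adjusted p under 0.05 (edgeR, Benjamini-Hochberg over 15183 genes). By this test 10.9% of all genes passed for Na+ ICN against PA, 15.8% for K+ ICN against PA and 6.58% for K+ ICN against Na+ ICN. The members' shares were 3 of 9, 3 of 9 and 1 of 9. By direction, 1 of 9 members rose and 2 fell with Na+ ICN, where 5.63% of all genes rose and 5.22% fell. With K+ ICN 2 of 9 rose and 1 fell, where 8.15% of all genes rose and 7.68% fell. Between the ions 1 of 9 was higher with K+ and none lower, where 3.33% of all genes were higher and 3.25% lower. With 9 genes, each such share rests on few genes. Both nanostructures were compared with the same PA libraries, so the pair of comparisons with PA is not independent. The whole-table counts were 855 higher and 793 lower for Na+ ICN, and 1237 higher and 1166 lower for K+ ICN. With upper-quartile scaling these splits were 1042 and 552, and 1440 and 902. The Na+ ICN count of 1648 was 1089 without Na+ ICN replicate 2 and 1079 without PA replicate 3.

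**Figure D1:**
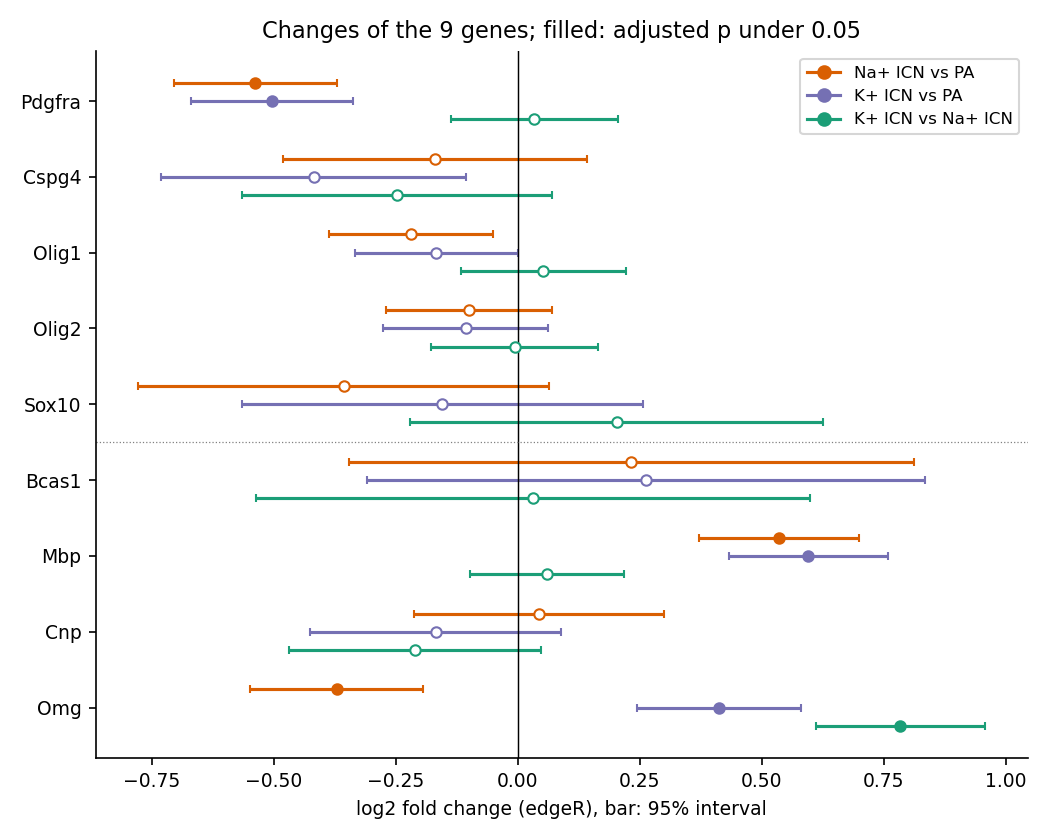
Log2 fold change of each of the 9 genes in 3 comparisons, with bars for the 95% interval and filled points for an adjusted p under 0.05. Pdgfra lies at -0.54 and -0.50 against PA, Mbp at 0.53 and 0.60, and Omg at -0.37 with Na+ and 0.41 with K+.

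In these cultures the summed neuron markers stood far above the oligodendrocyte precursor markers, and the cells that made the latter were not identified. Levels are CPM, counts scaled to a common library size with TMM, a correction for library composition. The 10 neuron markers summed to 8633 to 8848 CPM in Na+ ICN libraries, 7840 to 7937 in K+ ICN libraries and 8768 to 8907 in PA libraries. The 10 precursor markers, which include the 5 members, summed to 145 to 157, 147 to 161 and 163 to 183 CPM in the same group order. Olig1, Pdgfra, Olig2 and Lhfpl3 carried most of that sum, at 63.0, 37.0, 31.0 and 24.8 CPM in PA. Sox10 had 4.34 and Gpr17 3.54 CPM in PA, and Neu4 stayed under 10 counts in every library. The astrocyte and neural progenitor sums, given below, were also above the precursor sum. The 10 markers of mature oligodendrocytes summed to only 10.9 to 12.5 CPM with Na+ ICN, 9.78 to 11.99 with K+ ICN and 7.98 to 8.55 with PA. Of these, Mog, Mobp, Opalin and Aspa, which define the mature cell, stayed under 10 counts in every library. Of the neuron markers, 1 of 10 fell with Na+ ICN and 5 of 10 with K+ ICN. Of the 9 precursor markers tested, 1 fell with each nanostructure and 1 rose with K+ ICN. Of 5 mature markers tested, 1 rose with Na+ ICN and 2 with K+ ICN. Among all genes tested, 5.63% rose and 5.22% fell with Na+ ICN, and 8.15% rose and 7.68% fell with K+ ICN. In bulk RNA, fewer cells of a type and less RNA per cell cannot be told apart. Library totals were 17924988 to 22906950 counts, and the groups overlapped in depth. The mitochondrial share of counts was 5.24% to 5.44% in Na+ ICN libraries, 4.93% to 5.18% in K+ ICN libraries and 4.15% to 4.33% in PA libraries, so it moved with the groups. Its part in the results was not tested.

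The members differed widely in level. To compare genes, CPM was divided by the length of the longest GENCODE transcript. In PA, Olig1 had the highest level per length, 29.1 ± 2.86 CPM per kb (SD, n = 3), followed by Olig2 at 12.2 ± 0.511, Omg at 10.9 ± 0.131, Pdgfra at 5.41 ± 0.309, Mbp at 4.50 ± 0.110 and Cnp at 3.94 ± 0.419 CPM per kb. Sox10 had 1.56 ± 0.225, Cspg4 1.12 ± 0.200 and Bcas1 0.687 ± 0.0208 CPM per kb. No neighbours in this PA order overlapped over the 3 libraries. With Na+ ICN the order of Pdgfra and Mbp was the other way round: Mbp had 6.51 ± 0.647 CPM per kb, and Pdgfra had 3.72 ± 0.272 and overlapped Cnp. With K+ ICN, Omg had 14.5 ± 1.33 CPM per kb, above Olig2 at 11.4 ± 1.56, and Pdgfra at 3.81 ± 0.435 overlapped Cnp. The transcript set behind the counts is not given in the sources used here, so these per-length levels rest on GENCODE lengths.

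**Figure D2:**
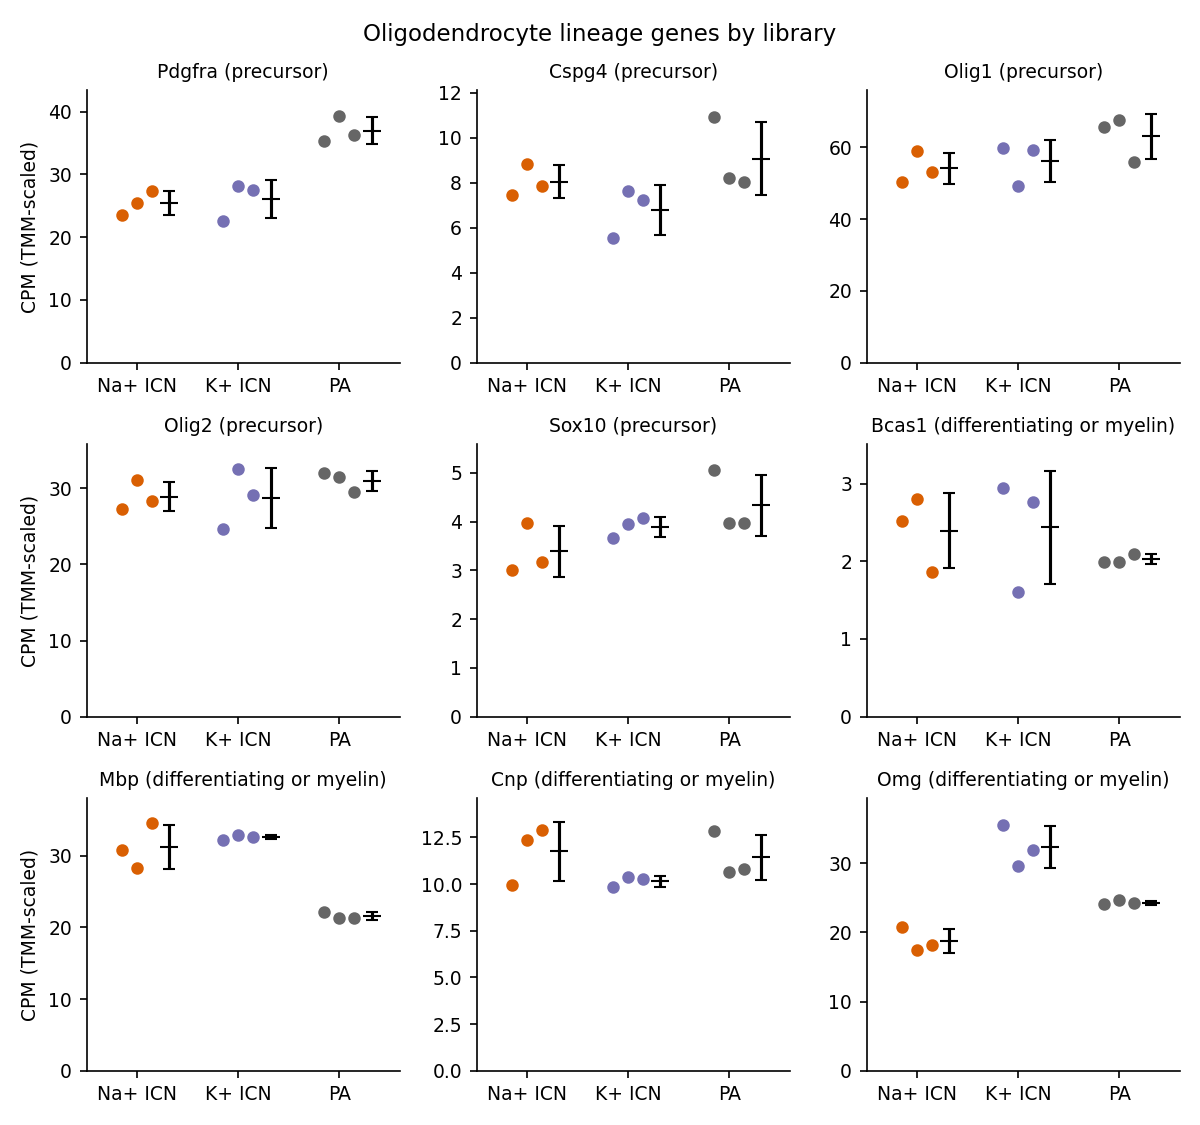
Level of each of the 9 genes in each library, in TMM-scaled CPM on axes that start at 0. Points are the 3 libraries of a group and bars the mean and SD. Pdgfra lies below PA in all 6 ICN libraries, Mbp lies above PA in all 6, and Omg lies below PA with Na+ ICN and above it with K+ ICN.

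Pdgfra, the receptor that precursors depend on for division, fell with both nanostructures. It had 23.6, 25.4 and 27.3 CPM in Na+ ICN libraries, 22.7, 28.1 and 27.5 CPM in K+ ICN libraries, and 35.3, 39.3 and 36.3 CPM in PA libraries. All 6 ICN libraries lay below all 3 PA libraries, and the ICN groups overlapped each other. The level with Na+ ICN was 0.689 of PA (log2 fold change -0.54, SE 0.083, edgeR adjusted p = 7.05e-06). With K+ ICN it was 0.705 of PA (log2 -0.50, SE 0.082, edgeR adjusted p = 8.63e-06). Between K+ ICN and Na+ ICN the ratio was 1.02, with a 95% interval from 0.909 to 1.15 (adjusted p = 0.905). Pdgfra had 431 to 830 counts per library. The antisense transcripts Gm42802 and Gm42803 overlap its exons and were not analysed here.

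Cspg4, the NG2 proteoglycan of precursors and mural cells, had lower values with K+ ICN without passing the test. It had 7.44, 8.86 and 7.88 CPM in Na+ ICN libraries, 5.53, 7.62 and 7.22 in K+ ICN libraries, and 10.9, 8.23 and 8.05 in PA libraries. The 3 K+ ICN libraries lay below the 3 PA libraries, and Na+ ICN overlapped PA. In K+ ICN the ratio to PA was 0.749, with a 95% interval from 0.603 to 0.930 (edgeR adjusted p = 0.0586). It passed without K+ ICN replicate 2 (adjusted p = 0.0488) and in a fit to the 6 libraries compared (0.0498). In Na+ ICN the ratio was 0.889 (interval 0.717 to 1.10, adjusted p = 0.560).

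Among the transcription factors of the lineage none passed. Olig1 had 50.4, 58.8 and 53.0 CPM in Na+ ICN libraries, 59.7, 49.3 and 59.1 in K+ ICN libraries, and 65.5, 67.5 and 56.0 in PA libraries. The third PA library, at 56.0 CPM, lay within the range of both ICN groups. The Olig1 ratio to PA was 0.859 with Na+ ICN (95% interval 0.765 to 0.966, unadjusted p = 0.0136, adjusted p = 0.0934, edgeR). It was 0.891 with K+ ICN (interval 0.794 to 0.9998, adjusted p = 0.178). Without PA replicate 3, Olig1 passed as lower in both comparisons, at log2 -0.30 with Na+ ICN (adjusted p = 0.00901) and -0.25 with K+ ICN (adjusted p = 0.0219). It also passed with Na+ ICN without Na+ ICN replicate 2 (adjusted p = 0.0428), with no low-count filter (0.00707) and in the fit to the 6 libraries compared (0.0293).

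Olig2, the factor that sets up the lineage, lies 41.1 kb upstream of Olig1 on chromosome 16. Its level ranged from 27.3 to 31.1 CPM with Na+ ICN, from 24.7 to 32.6 with K+ ICN and from 29.5 to 31.95 with PA, and the groups overlapped. The ratio to PA was 0.933 with Na+ ICN (interval 0.829 to 1.05) and 0.929 with K+ ICN (interval 0.826 to 1.04), with adjusted p of 0.525 and 0.449 (edgeR). Sox10, which drives the lineage toward myelin genes, was low, at 55 to 99 counts per library. It had 3.39 ± 0.519 CPM with Na+ ICN, 3.90 ± 0.205 with K+ ICN and 4.34 ± 0.624 with PA (SD, n = 3). Its ratio to PA was 0.781 (interval 0.583 to 1.05) with Na+ ICN and 0.898 (interval 0.676 to 1.19) with K+ ICN, and neither passed (adjusted p = 0.311 and 0.689, edgeR).

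All 5 precursor genes had a log2 fold change below 0 against PA with both nanostructures, and 1 of the 5 passed in each comparison. Their median was -0.22 with Na+ ICN and -0.17 with K+ ICN, where the median over all genes tested was 0.0036 and 0.0031. The 5 genes together summed to 112, 128 and 120 CPM in Na+ ICN libraries, 116, 122 and 127 in K+ ICN libraries, and 149, 151 and 134 in PA libraries. Every ICN library was below every PA library. Without Pdgfra the sums were 88.1 to 103 CPM with Na+ ICN, 93.4 to 99.4 with K+ ICN and 97.5 to 113 with PA, and both ICN groups overlapped PA.

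**Figure D3:**
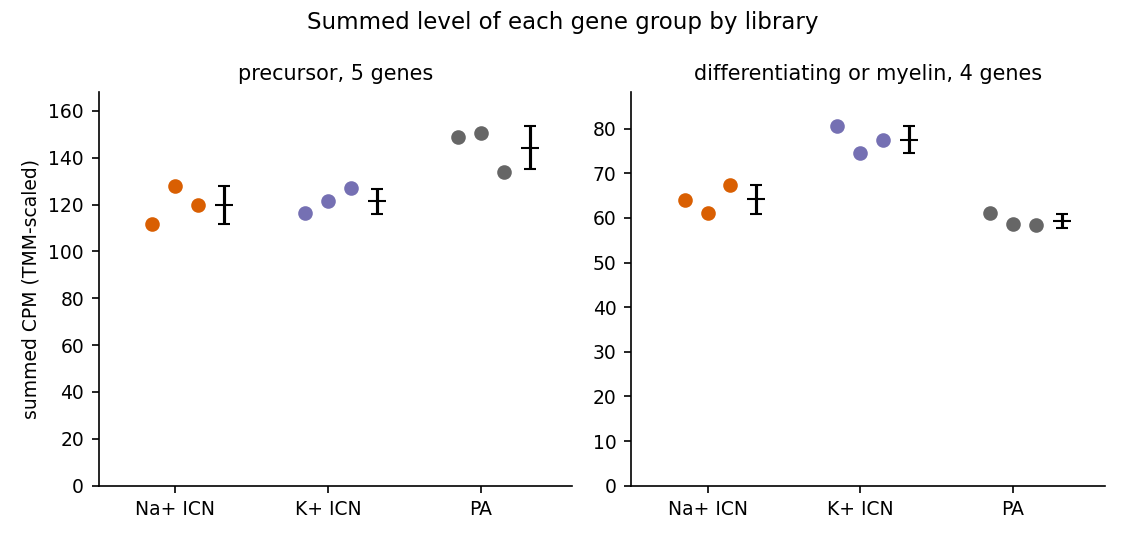
Summed TMM-scaled CPM of the 5 precursor genes (left) and the 4 differentiating or myelin genes (right) in each library, with group mean and SD. The precursor sum averages 120, 122 and 144 CPM with Na+ ICN, K+ ICN and PA, and the myelin sum 64.2, 77.5 and 59.4 CPM.

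Mbp rose with both nanostructures. It had 30.9, 28.3 and 34.5 CPM in Na+ ICN libraries, 32.3, 32.9 and 32.6 in K+ ICN libraries, and 22.2, 21.3 and 21.2 in PA libraries. All 6 ICN libraries lay above all PA libraries. The rise was 1.45-fold with Na+ ICN (log2 0.53, SE 0.082, edgeR adjusted p = 4.93e-06) and 1.51-fold with K+ ICN (log2 0.60, SE 0.081, edgeR adjusted p = 1.91e-07). The K+ to Na+ ratio was 1.04, with an interval from 0.934 to 1.16 (adjusted p = 0.786). The Mbp gene holds 16 annotated transcripts in GENCODE vM21, golli forms among the gene's known products, and which of them carried the rise was not tested.

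Omg moved in opposite directions with the ions. It had 20.8, 17.5 and 18.1 CPM in Na+ ICN libraries, 35.5, 29.6 and 31.9 in K+ ICN libraries, and 24.1, 24.6 and 24.2 in PA libraries. The 3 groups did not overlap, with PA in the middle. Omg fell to 0.773 of PA with Na+ ICN (log2 -0.37, SE 0.088, edgeR adjusted p = 0.00308). It rose 1.33-fold with K+ ICN (log2 0.41, SE 0.084, edgeR adjusted p = 2.58e-04). The direct comparison gave 1.72-fold more with K+ ICN than with Na+ ICN (interval 1.53 to 1.94, log2 0.78, edgeR adjusted p = 2.88e-09). The gene (chromosome 11, 79500982 to 79504084, minus strand, GRCm38) lies inside Nf1, which runs on the other strand. Nf1 had 152, 155 and 149 CPM on average with Na+ ICN, K+ ICN and PA, and did not pass in any comparison (log2 0.029, 0.060 and 0.030, adjusted p from 0.312 to 0.770).

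Bcas1 and Cnp did not pass in any comparison. Bcas1, at 34 to 65 counts per library, had 2.39 ± 0.484 CPM with Na+ ICN, 2.44 ± 0.730 with K+ ICN and 2.03 ± 0.0615 with PA (SD, n = 3). At this depth its ratio to PA was bounded between 0.786 and 1.75 with Na+ ICN and between 0.807 and 1.78 with K+ ICN. Cnp had 9.96, 12.4 and 12.9 CPM in Na+ ICN libraries, 9.83, 10.4 and 10.3 in K+ ICN libraries, and 12.8, 10.7 and 10.8 in PA libraries. The K+ ICN libraries lay below those of PA, at a ratio of 0.890 (interval 0.745 to 1.06, adjusted p = 0.426, edgeR), and the Na+ ICN ratio was 1.03 (interval 0.862 to 1.23, adjusted p = 0.886). An exon of Cnp overlaps Dnajc7 on the opposite strand. Dnajc7 averaged 167, 155 and 167 CPM with Na+ ICN, K+ ICN and PA, and the strand setting of the counting is not given in the sources used here.

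The 4 differentiating or myelin genes thus split. With Na+ ICN 1 rose and 1 fell, and with K+ ICN 2 rose. Over all genes tested, 5.63% rose and 5.22% fell with Na+ ICN, and 8.15% rose and 7.68% fell with K+ ICN. The sum of the 4 genes was 64.1, 61.0 and 67.4 CPM in Na+ ICN libraries, 80.6, 74.5 and 77.6 in K+ ICN libraries, and 61.1, 58.6 and 58.4 in PA libraries. Without Omg it was 43.3 to 49.3 CPM with Na+ ICN, 44.9 to 45.7 with K+ ICN and 33.9 to 37.0 with PA. Without Mbp as well, Bcas1 and Cnp together summed to 12.5 to 15.2 CPM with Na+ ICN, 11.99 to 13.03 with K+ ICN and 12.6 to 14.8 with PA, and the groups overlapped. Libraries of the groups did not overlap in 3 of the 9 genes for Na+ ICN against PA, 5 of 9 for K+ ICN against PA and 1 of 9 between the ions. The same was true of 26.7%, 32% and 22% of all genes tested.

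Markers of other cells moved beside these genes. For scale, 5.63% of all genes tested rose and 5.22% fell with Na+ ICN. The K+ ICN shares were 8.15% and 7.68%. Of 11 astrocyte markers tested, 8 rose and none fell with each nanostructure, and the 12-marker sum was 996 to 1048 CPM with Na+ ICN, 960 to 972 with K+ ICN and 826 to 861 with PA. The 12 fibroblast and leptomeningeal markers summed to 153 to 156, 158 to 165 and 131 to 140 CPM in the same order of groups. Of 8 tested, 3 were higher with Na+ ICN and 4 with K+ ICN. Fn1 carried most of that sum, at 103, 98.2 and 96.2 CPM, and did not pass against PA (edgeR adjusted p = 0.201 and 0.727). The collagen genes Col1a1 (log2 0.73 with Na+ ICN and 0.98 with K+ ICN), Col1a2 (0.71 and 0.94) and Col3a1 (0.57 and 0.87) passed as higher with both. None of the 8 passed as lower. Lum, Twist1 and Slc6a13 stayed under 10 counts in every library. The 11 mural markers, Cspg4 among them, summed to 124 to 130, 135 to 155 and 81.9 to 87.2 CPM, and 3 and 2 of 8 rose. Acta2 and Tagln carried most of that sum, while Kcnj8, Abcc9 and Des stayed under 10 counts in every library. Other mural markers were detected: Notch3 at 264 to 430 counts, Pdgfrb at 104 to 186, Rgs5 at 54 to 91 and Vtn at 27 to 70. Of these, only Vtn passed, as higher with Na+ ICN (log2 0.89, edgeR adjusted p = 0.0460). Both ICN groups had higher astrocyte, fibroblast and mural sums than PA, and lower Pdgfra. Schwann and neural crest markers, which share Sox10, summed to 21.9 to 26.1, 21.3 to 26.2 and 21.9 to 22.8 CPM, with Foxd3 and Cdh19 under 10 counts throughout and none of 4 tested passing in any comparison. The 13 neural progenitor markers summed to 1196 to 1264, 1258 to 1294 and 1077 to 1116 CPM, and 5 of 13 rose with each nanostructure. The 12 microglial markers summed to 26.8 to 33.4, 28.5 to 33.7 and 25.6 to 30.5 CPM, with none of 10 tested passing for Na+ ICN and 1 rising with K+ ICN. The 8 endothelial markers summed to 11.4 to 13.8, 14.3 to 19.6 and 10.4 to 15.01 CPM, with none of 3 tested passing for Na+ ICN and 1 rising with K+ ICN. The part of these other cells in the changes of Pdgfra, Mbp and Omg was not tested.

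The wider precursor list held 26 genes, several of which neurons and astrocytes also express, and 25 were tested. With Na+ ICN only Pdgfra of the 25 passed, which is 4% of the list, beside 10.9% of all genes tested. The median log2 fold change was 0.0033, against 0.0036 over all genes. With K+ ICN 1 rose and 4 fell, with a median of -0.088, against 0.0031 over all genes. The share that passed was 20%, beside 15.8% of all genes tested. These values include the 5 precursor members. Of the 20 tested genes that are not members, none passed with Na+ ICN, and 1 rose and 3 fell with K+ ICN. The medians of these 20 were 0.034 with Na+ ICN and -0.025 with K+ ICN. Besides Pdgfra, the proteoglycan Vcan fell to 0.807 of PA with K+ ICN (211 ± 6.65 CPM, against 262 ± 2.96 in PA, SD, n = 3, edgeR adjusted p = 7.81e-10). The matrix protein Tnr fell to 0.906 and the transcription factor Sox6 to 0.857 of PA. Tnr did not pass without K+ ICN replicate 1 (adjusted p = 0.124). Sox6 did not pass without K+ ICN replicate 1 (0.0745), K+ ICN replicate 2 (0.103) or PA replicate 1 (0.146). C1ql1, a secreted C1q-family protein, rose 3.01-fold at 12 to 66 counts per library, and did not pass without K+ ICN replicate 3 (adjusted p = 0.0996, log2 1.14 against 1.59). Between the ions, Vcan was 0.822 and the AMPA receptor auxiliary subunit Cacng4 0.907 of the Na+ level with K+. Cacng4 did not pass without K+ ICN replicate 2 (adjusted p = 0.191, log2 -0.092 against -0.14).

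Of the other precursor markers, Lhfpl3 (a transmembrane protein enriched in precursors), Gpr17 (a receptor of precursors committed to differentiate) and Ptprz1 (a receptor phosphatase) did not pass. Lhfpl3 averaged 23.9, 26.8 and 24.8 CPM with Na+ ICN, K+ ICN and PA. Gpr17 averaged 3.32, 2.39 and 3.54 CPM. Ptprz1 averaged 716, 666 and 702 CPM.

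**Figure D4:**
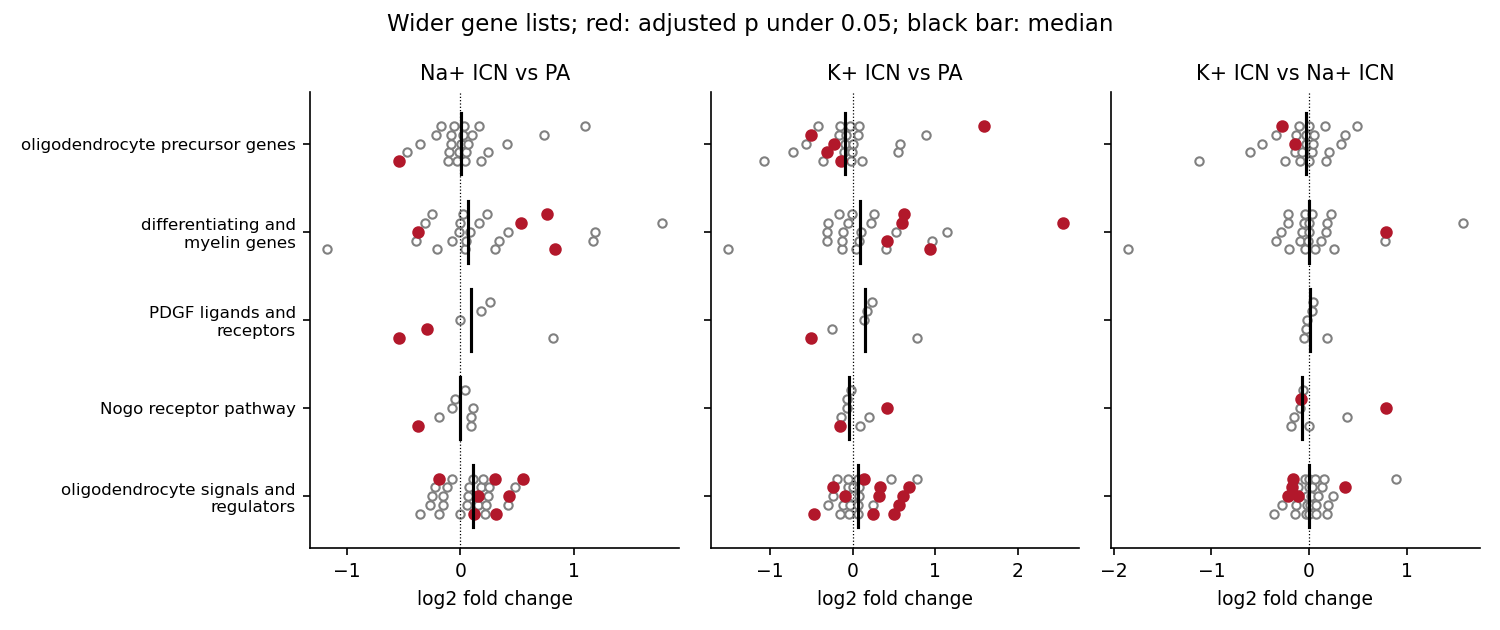
Log2 fold change of every tested gene in 5 wider lists, in 3 comparisons, each panel on its own scale. Red points passed at an adjusted p under 0.05 and black bars are list medians. In the precursor list 1 of 25 genes passed with Na+ ICN and 5 of 25 with K+ ICN, and in the myelin list 4 and 5 of 24.

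The wider list of differentiating and myelin genes held 36 genes, of which 24 were tested, the other 12 being too low. With Na+ ICN 3 rose and 1 fell, 16.7% of those tested, beside 10.9% of all genes. With K+ ICN 5 rose and none fell, 20.8% of those tested, beside 15.8% of all genes. These counts include the members Mbp and Omg. Of the 20 tested genes that are not members, 2 rose with Na+ ICN, 3 rose with K+ ICN and none fell. List medians were 0.070 and 0.094, against 0.0036 and 0.0031 over all genes, and between the ions only Omg passed. Lpar1, a lysophosphatidic acid receptor of oligodendrocytes, rose 1.69-fold with Na+ ICN and 1.91-fold with K+ ICN (edgeR adjusted p = 0.0142 and 9.35e-04). With Na+ ICN it did not pass without Na+ ICN replicate 1 (0.0521), PA replicate 1 (0.0522) or PA replicate 3 (0.0630). Cldn11, the tight junction protein of myelin, had 11, 8 and 14 counts in Na+ ICN libraries, 23, 26 and 15 counts in K+ ICN libraries, and 2, 6 and 2 counts in PA libraries. Its fitted rise of 5.85-fold with K+ ICN (adjusted p = 0.00265, edgeR) rests on these few counts. All PA libraries lay under the filter's count minimum of 10, so Cldn11 was tested only through the ICN libraries, where it was high. The rise is therefore a description only, though Cldn11 is counted among the genes that rose with K+ ICN above. With 1 library left out, the Cldn11 log2 fold change was 2.21 to 3.32, beside 2.55 with all libraries, and the 3.32 was without PA replicate 2. DESeq2 gave no adjusted p for Cldn11, and the filter of 1 CPM in 3 libraries left it out. Myrf, the factor that switches on myelin genes, had 0.891, 0.763 and 0.381 CPM on average with Na+ ICN, K+ ICN and PA and did not pass (adjusted p = 0.168 and 0.246 against PA).

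In the PDGF family, the ligand Pdgfa, which acts through Pdgfra, had 22.0, 19.7 and 18.7 CPM in Na+ ICN libraries, 23.0, 18.6 and 20.3 in K+ ICN libraries, and 27.2, 21.5 and 25.2 in PA libraries. It fell to 0.816 of PA with Na+ ICN (edgeR adjusted p = 0.0385). That call was lost with DESeq2 (adjusted p = 0.0629), limma voom (0.0702), upper-quartile scaling (0.0590), and without Na+ ICN replicate 2 (0.120) or 3 (0.167) or PA replicate 1 (0.239) or 3 (0.128). With K+ ICN its log2 fold change was -0.26 (adjusted p = 0.0576). The ligands Pdgfb, Pdgfc and Pdgfd and the receptor Pdgfrb did not pass in any comparison. Of the 6 family genes, 2 passed with Na+ ICN, 1 with K+ ICN and none between the ions. The shares over all genes tested were 10.9%, 15.8% and 6.58%.

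In the Nogo receptor pathway, to which Omg belongs, 8 of 9 genes were tested. Apart from Omg, Rtn4 (the ligand Nogo) was the gene that passed, at 0.900 of PA with K+ ICN (804 ± 7.13 CPM, against 893 ± 9.58 in PA, edgeR adjusted p = 1.53e-05). It was 0.946 of the Na+ level with K+ (adjusted p = 0.0480), a call lost in 9 of 14 alternatives, with each of the 3 K+ ICN libraries or Na+ ICN replicate 2 or 3 left out among them (adjusted p from 0.0520 to 0.176). The receptor Rtn4r averaged 34.5, 31.0 and 32.4 CPM with Na+ ICN, K+ ICN and PA, and its partner Lingo1 194, 186 and 189 CPM. Neither passed against PA, with adjusted p from 0.514 to 0.760.

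Of 30 tested signals and regulators of the lineage, 6 rose and 1 fell with Na+ ICN, and 8 rose and 3 fell with K+ ICN. Over all genes tested, 5.63% rose and 5.22% fell with Na+ ICN, and 8.15% rose and 7.68% fell with K+ ICN. The muscarinic receptor Chrm1 rose 1.46-fold with Na+ ICN and 1.60-fold with K+ ICN (edgeR adjusted p = 3.58e-04 and 3.92e-06). Erbb4, a neuregulin receptor of interneurons and glia, fell to 0.877 and 0.849 of PA. Id4, an inhibitor of basic helix-loop-helix factors including Olig proteins, rose 1.23-fold with Na+ ICN (103 ± 3.92 CPM, against 83.2 ± 2.52 in PA) and 1.10-fold with K+ ICN. The hedgehog receptor component Smo rose 1.24-fold with Na+ ICN and 1.25-fold with K+ ICN. With Na+ ICN it did not pass without PA replicate 2 (adjusted p = 0.0622). With K+ ICN, the growth factor Igf1 rose 1.48-fold (33.0 ± 3.12 CPM, against 22.3 ± 1.29 in PA) and the hedgehog effector Gli3 1.41-fold, beside 1.34-fold with Na+ ICN. Between the ions 1 was higher and 4 were lower with K+, where 3.33% of all genes were higher and 3.25% lower. Igf1 was 1.29-fold higher, the thyroid hormone receptor Thra 0.893, Id2 0.863 and Id4 0.888 of the Na+ level. Igf1 did not pass this comparison without K+ ICN replicate 3 (adjusted p = 0.0522), nor Id4 without Na+ ICN replicate 3 (0.0940) or K+ ICN replicate 1 (0.0581).

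For the 3 members that passed, the genes of nearest pattern were sought among 10805 genes of at least 5 CPM. The measure was the root-mean-square difference of log2(CPM + 0.5), centred on each gene's mean, over the 9 libraries, which all genes share. Nearest to Pdgfra were Lypd1, the sialyltransferase St3gal1 and the AMPA receptor auxiliary protein Shisa6, at 0.104, 0.108 and 0.117 log2 units. Nearest to Mbp were the NMDA receptor subunit Grin2d, Slfn9 and the protocadherin Pcdhb7, at 0.0414, 0.0422 and 0.0679. Nearest to Omg were Rgs4, a brake on G protein signalling, the Wnt carrier Wls and Fndc9, at 0.0980, 0.123 and 0.123. None of these 9 genes is in the precursor or myelin lists. Those lists held 25 and 24 tested genes, few beside the 10805 compared, so this is a description only. Rgs4 had log2 fold changes of -0.34 with Na+ ICN and 0.44 with K+ ICN against PA, beside -0.37 and 0.41 for Omg.

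**Figure D5:**
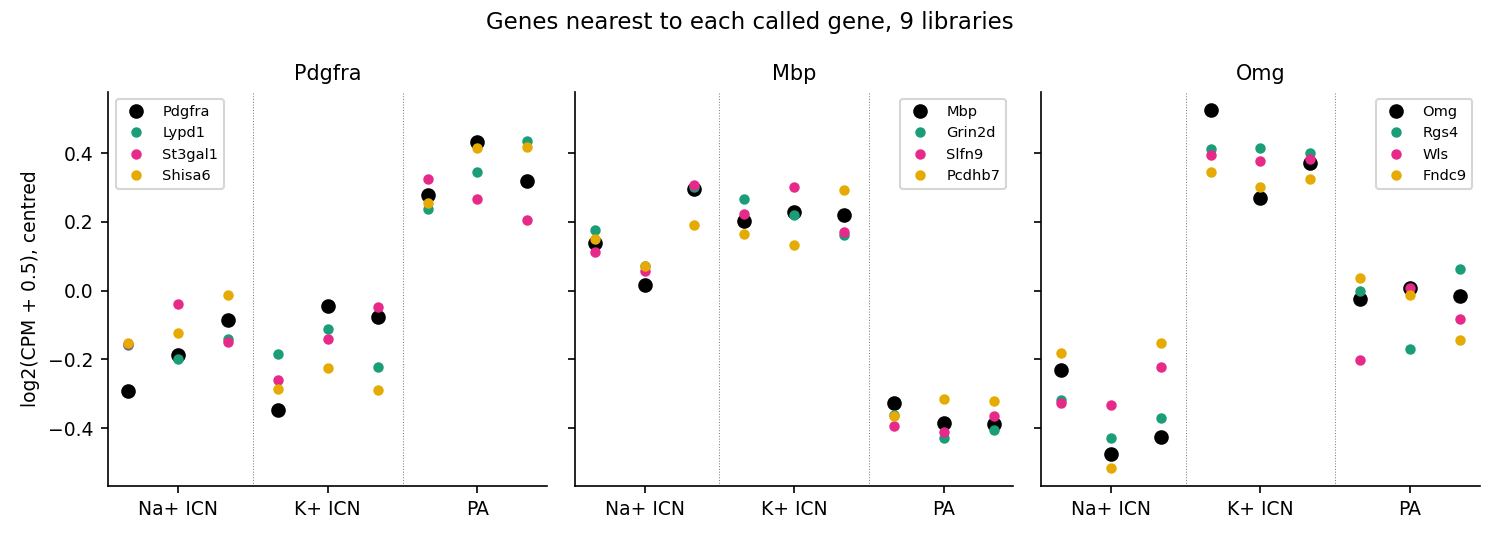
Centred log2(CPM + 0.5) of Pdgfra, Mbp and Omg (black) and of the 3 genes nearest to each, over the 9 libraries. Pdgfra and its nearest genes are highest in PA, Mbp and its nearest genes are lowest in PA, and Omg and its nearest genes are highest with K+ ICN.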

How the data were processed

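Raw gene counts, whole numbers per gene symbol, are what the authors deposited. The tools named, per the submitters' processing notes, are RSEM, STAR and Trim Galore, without versions, and the build is GRCm38. Which of these made the counts, with which annotation and strand setting, is not given in the sources used here. Libraries held 17924988 to 22906950 counts. Replicate pairs differed beyond counting noise (chi-square per degree of freedom 3.23 to 4.14), so none was merged.

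The test was edgeR 4.0.16 (R 4.3.3). Genes passed filterByExpr with a count minimum of 10, were scaled by TMM, and were fitted with a robust quasi-likelihood model over all 9 libraries. SE is the log2 fold change over the square root of F, and intervals are at 95%. The pipeline was tested on simulated data. Alternatives were DESeq2 1.42.0, its size factors, upper-quartile factors, limma 3.58.1 voom, no filter, 1 CPM in 3 libraries, the 6 libraries compared, a replicate term and each library left out. Lengths and overlaps came from GENCODE vM21. Members, 5 wider lists and 10 marker lists were chosen with earlier results of these data known. All members are named, plus at most 4 passing genes per list and comparison with the smallest adjusted p, and 3 genes nearest in pattern to each passing member. Lhfpl3, Gpr17, Ptprz1, Myrf, Rtn4r, Lingo1, Col1a1, Col1a2, Col3a1, Notch3, Rgs5, Vtn and the other PDGF genes were named after their values were seen. Among the genes this rule names, 1 is not reported here.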

Additional observations from a re-analysis of the deposited data

Results flagged for a closer look

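By the direct edgeR test of K+ ICN against Na+ ICN, which 6.58% of all genes passed, the effect of the nanostructure differed between the ions in Omg, which was higher with K+ ICN (log2 0.78). Other named genes also differed, but they were named because they passed a test on these libraries or for their pattern, so their number is no result. From the lists, the growth factor Igf1 was higher with K+ ICN (log2 0.37), and Vcan (-0.28), Id2 (-0.21), Id4 (-0.17), Thra (-0.16), Cacng4 (-0.14) and Rtn4 (-0.080) were lower. Rgs4 (log2 0.78), Wls (0.68) and Fndc9 (0.61) were chosen for their likeness to Omg over the same 9 libraries, which fixed their difference, and their values are a description only. Groups of 3 libraries are too small for a test of single outlying samples.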

How the results depend on the processing

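All 7 calls on members (Pdgfra and Mbp with each nanostructure, Omg in all 3 comparisons) kept their direction and passed in all 14 alternatives. The weakest was Omg with Na+ ICN, at a largest adjusted p of 0.0325. Counts of members that passed were 3 to 4 against PA in both comparisons and 1 between the ions. Leaving out 1 library gave 1079 to 1376 passing genes for Na+ ICN against PA, 1778 to 1954 for K+ ICN against PA and 714 to 885 between the ions. Members that did not pass changed sign when a library was left out: Cnp with Na+ ICN against PA (log2 -0.032 to 0.15), and, between the ions, Pdgfra (-0.024 to 0.13), Olig2 (-0.11 to 0.093), Bcas1 (-0.13 to 0.26) and Mbp (-0.0052 to 0.14). Where a group was left with 2 libraries, the spread was shared with the other groups. With the replicate block, 1825, 2612 and 1165 genes passed, beside 1648, 2403 and 999 without it. The members that passed numbered 3, 3 and 1. Same-numbered libraries of different groups deviated together little (r from -0.023 to 0.048). The own number was best in 12 of 18 matches, in every match of Na+ ICN with another group and in none of K+ ICN with PA. These values do not settle whether the numbers mark pairs. The numbers were not taken as pairs because the labels do not say that they mark a shared culture. Of 362 alternative values for the list genes the naming rule chose, 37 lost the call and none changed direction. The genes nearest in pattern were picked on these same libraries, so how often they kept a call is a description only. Among them Wls with Na+ ICN lost its call in 5 alternatives and Fndc9 with K+ ICN in 1 (edgeR adjusted p from 0.0508 to 0.172). Depth limits Bcas1 and Sox10, whose log2 SE against PA was 0.20 to 0.29, beside 0.081 to 0.082 for Mbp.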
